A study of Homo sapiens with 12 samples.

Results

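The 10 genes CDKN1A, MDM2, TRIAP1, SESN1, GADD45A, BTG2, EDA2R, CCNG1, DDB2 and AEN are established transcriptional targets of p53. They were taken by symbol from 23284 symbols listed for the polysome RNA of HEK293 cells. This choice was made with earlier results of these data known. All 10 were listed in both deposited tables, and all 10 passed the filter on low values, a mean of at least 1, in the first experiment. No value of the knockout experiment is below 1, so the filter could exclude no gene there. Only genes that did not vary were left out. HEK293 is a human embryonic kidney cell line, and polysome RNA is the RNA that sediments with several ribosomes in a sucrose gradient. Since only this fraction was measured, more of an RNA cannot be told apart from heavier loading of it with ribosomes. In these bulk samples, fewer cells expressing a gene and less RNA per cell cannot be told apart either.

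Cells received 5 ug of plasmid for 24 h, either STING or the empty vector. STING, listed under its older symbol TMEM173, is the adaptor of cytosolic DNA sensing. There were 12 libraries in 6 groups, 2 in each. A first experiment compared STING with vector in HEK293 cells of no stated genotype. The knockout experiment compared cells labelled PERK KO with cells labelled WT, each with STING and with vector. PERK, encoded by EIF2AK3, is a stress sensor in the endoplasmic reticulum membrane and a kinase for eIF2alpha. How the knockout line was made, and whether it is 1 clone, is not given in the sources used here, so a difference between genotypes and a difference between cell lines cannot be told apart. The labels do not tell whether the 2 libraries of a group came from different cultures, so the spread behind the p-values may be technical only.

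The transcription factor p53 is kept low in unstressed cells by MDM2, which is itself one of its targets. When DNA damage, disturbed ribosome production or other stress frees p53, it turns on genes for cell cycle arrest, DNA repair, apoptosis and its own feedback control. HEK293 cells were transformed with adenovirus DNA and carry the viral E1A and E1B genes, and an E1B protein binds p53. These cells are therefore a setting in which p53 control is altered in every group.

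TMEM173 stood at 10512 and 7338 FPKM (fragments, corrected for transcript length and library size) in PERK KO cells with STING, against 41812 and 40660 in WT cells with STING (limma log2 change -2.23, SE 0.34, adjusted p = 0.0320). The transfected gene was thus lower in PERK KO cells, and comparisons with STING were made at unequal STING levels. The table of the knockout experiment does not name its unit, and its values were taken for FPKM in which anything below 1 had been raised to 1. It lay between 23.1 and 43.8 FPKM in the 4 vector libraries of that experiment, and at 65157 and 69253 with STING against 14.9 and 13.8 with vector in the first. EIF2AK3 stood at or near the lowest listed value in all 8 libraries of the knockout experiment and cannot check the knockout label. The 8 markers of other cell types summed to at most 1.05 FPKM in the first experiment, while the knockout table lists only COL1A1 of them, at 1 to 1.75 FPKM. The 6 epithelial and HEK293 markers summed to 293 to 493 FPKM in PERK KO libraries and to 163 to 231 FPKM in WT libraries. Of these, the keratin KRT8 was higher in PERK KO cells with vector and with STING (log2 changes of 1.75 and 2.33, adjusted p = 0.0444 and 0.0228), and in the average over both plasmids so were VIM and NEFL (1.08 and 1.01, adjusted p = 0.0296 and 0.0468). The part of these marker differences in the values below was not tested.

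In WT cells with vector, mean levels ran in the order TRIAP1 (127 FPKM), CDKN1A (73.2), CCNG1 (47.7), AEN (40.9), DDB2 (37.7), GADD45A (32.04), BTG2 (12.6), MDM2 (8.97), EDA2R (6.09) and SESN1 (5.99). FPKM are scaled to transcript length, so levels of different genes can be set side by side. EDA2R and SESN1 overlapped in their 2 libraries each, as did AEN and DDB2, and DDB2 and GADD45A overlapped as well. The other neighbours in this order did not overlap.

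Binding elements of p53 consist of 2 half-sites of 10 bases. The promoters of the members were searched for this consensus because the genes are grouped by p53 control; the windows reach from 250 bases before to 50 bases after each RefSeq start on GRCh38.p14. A match needed half-sites 0 or 1 base apart, the C and G of each core, and at most 3 mismatches in all. The consensus is its own reverse complement, so a search of one strand covers both, and the criterion was set after the sequences had been seen. Of the 9 members with a window, 4 held a match (44.4%), against 2.91% of 27305 genes and 24.1% of 29 other p53 targets. Genes differed in their number of windows, which these shares do not adjust for. MDM2, DDB2 and SESN1 matched in only some of their windows. With the criterion set after the sequences had been seen, the shares are a description only. The stretches below are shown 5′ to 3′ on the gene's strand with the half-sites in capitals. They lie at chr12:68808883-68808982 on the plus strand for MDM2, chr11:47214939-47215003 on the plus strand for DDB2, chr15:88621266-88621365 on the plus strand for AEN and chr6:109008978-109009077 on the minus strand for SESN1.
MDM2: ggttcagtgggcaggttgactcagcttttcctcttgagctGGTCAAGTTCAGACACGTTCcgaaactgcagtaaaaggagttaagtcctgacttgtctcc
DDB2: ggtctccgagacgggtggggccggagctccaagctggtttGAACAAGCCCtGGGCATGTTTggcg
AEN: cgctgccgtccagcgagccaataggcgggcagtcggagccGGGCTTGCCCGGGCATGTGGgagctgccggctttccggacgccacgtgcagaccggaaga
SESN1: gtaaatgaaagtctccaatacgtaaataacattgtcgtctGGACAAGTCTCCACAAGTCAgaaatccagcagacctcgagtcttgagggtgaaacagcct
The DDB2 element had 0 mismatches and a spacer of 1 base, and it began at position 6, counted from the start base as 1. Among 35116 windows, 7 had a match with 0 mismatches. The elements of MDM2 and AEN had 2 mismatches and that of SESN1 had 3. Their first bases stood at -34 from the start for AEN and at -49 from an internal start for SESN1. The MDM2 element belongs to internal starts of the gene, where the p53-responsive promoter of MDM2 is known to lie. For CDKN1A, TRIAP1, BTG2, CCNG1 and EDA2R no match was found in the windows searched. The well-known p53 sites of CDKN1A lie further upstream than the window reaches. A match is a description of the sequence, and none of the files measured binding.

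Across genotypes, 5 of the 10 members were lower in PERK KO than in WT cells when vector and STING were averaged: CDKN1A, TRIAP1, EDA2R, GADD45A and AEN. This average over both plasmids was added after the data had been seen. By limma at an adjusted p under 0.05, 5.4% of 12254 genes passed in this comparison, 2.42% lower and 2.98% higher, and no member was higher. The members' median log2 change was -0.69, against -0.019 for all genes tested. All 4 PERK KO libraries lay below all 4 WT libraries for 6 members, the 5 above and DDB2, as they did for 5.61% of all genes tested. They lay above them for 0 members, against 5.79% of all genes tested.

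**Figure D1:**
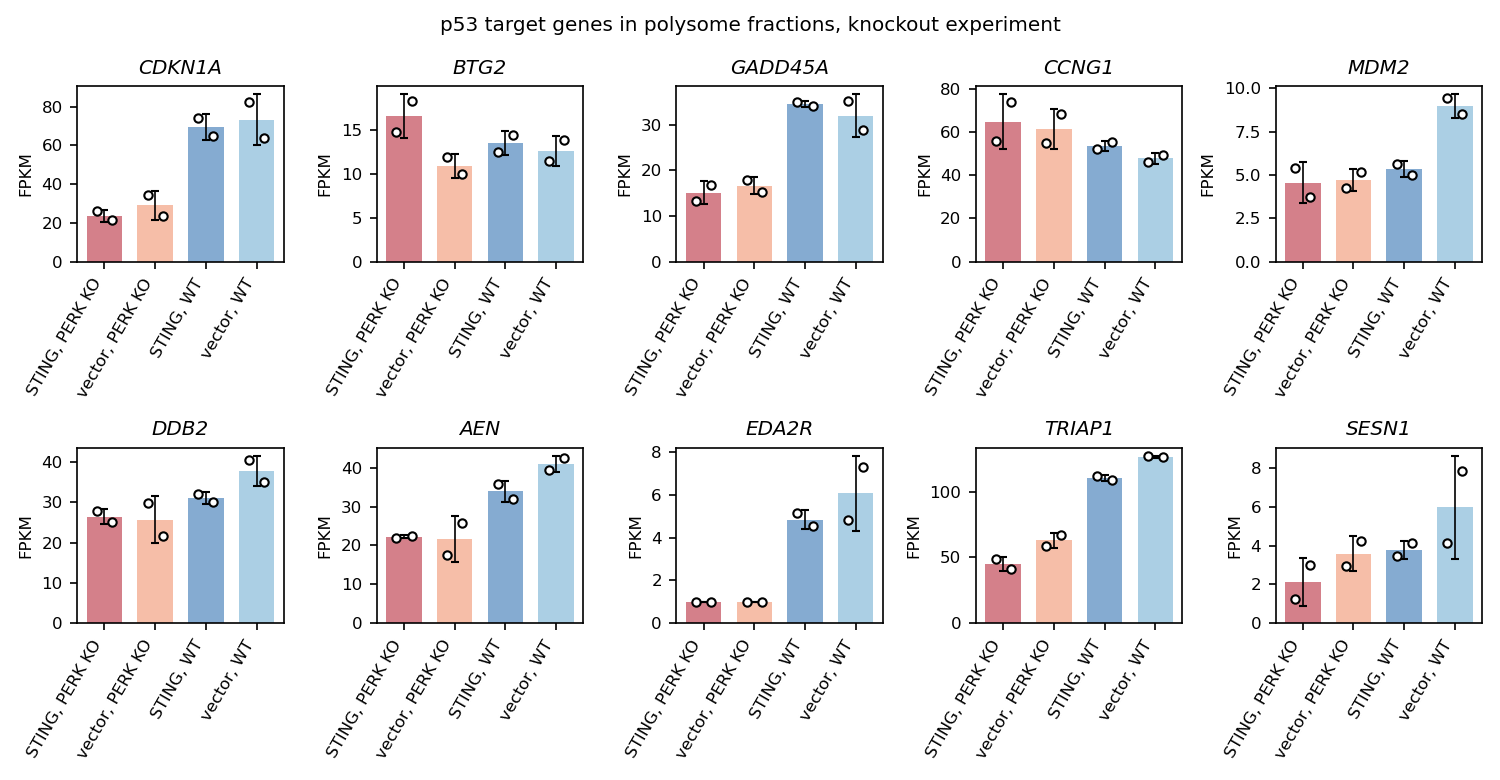
Levels of the 10 members in the knockout experiment, in FPKM with a floor of 1, with points for libraries and bars for group means ± SD (n = 2). CDKN1A, TRIAP1, EDA2R, GADD45A, AEN and DDB2 are lower in each PERK KO library than in any WT library, while BTG2 overlaps between genotypes.

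CDKN1A encodes p21, the inhibitor of cyclin-dependent kinases that carries out much of the arrest under p53. With vector it had 34.3 and 23.5 FPKM in PERK KO cells, against 82.5 and 64.0 in WT cells. With STING it had 25.8 and 21.4 FPKM in PERK KO cells, against 74.2 and 64.7 in WT cells. The highest PERK KO library was below the lowest WT library with either plasmid. The averaged change was -1.42 on the log2 scale (SE 0.17, adjusted p = 0.00914), with 26.3 ± 5.68 FPKM in PERK KO and 71.3 ± 8.75 in WT cells (SD, n = 4). Taken separately, the change was -1.52 (SE 0.24) with STING, which passed (adjusted p = 0.0339), and -1.32 (SE 0.24) with vector, which did not (adjusted p = 0.119).

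GADD45A is a stress sensor that takes part in arrest and DNA repair. With vector it had 18.0 and 15.3 FPKM in PERK KO cells, against 35.3 and 28.8 in WT cells. With STING it had 13.4 and 16.9 FPKM in PERK KO cells, against 35.1 and 34.1 in WT cells. The groups did not overlap with either plasmid. The change was -1.15 (SE 0.21, adjusted p = 0.0439) with STING and -0.90 (SE 0.21, adjusted p = 0.203) with vector, and -1.03 (SE 0.15, adjusted p = 0.0143) averaged. BTG2, an antiproliferative co-regulator, overlapped between genotypes and averaged 13.7 ± 3.64 FPKM in PERK KO and 13.0 ± 1.36 in WT cells (SD, n = 4), with an averaged change of 0.04 (SE 0.15, adjusted p = 0.900).

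CCNG1 encodes cyclin G1, which takes part in the feedback of p53 through MDM2. It was the member whose PERK KO libraries stood above the WT libraries of the same plasmid in both cases, as did 8.4% of all genes tested. With vector it had 54.9 and 68.1 FPKM in PERK KO cells, against 45.9 and 49.5 in WT cells, and with STING 55.9 and 73.7 in PERK KO cells, against 52.0 and 55.3 in WT cells. The averaged change of 0.30 (SE 0.14, adjusted p = 0.257) did not pass. The lowest PERK KO library, with vector, was below the highest WT library, with STING, so the 4 libraries of each genotype overlapped.

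MDM2, the ubiquitin ligase that degrades p53, had 4.26 and 5.16 FPKM in PERK KO cells with vector, against 9.45 and 8.49 in WT cells with vector. With STING it had 5.41 and 3.71 FPKM in PERK KO cells, against 5.65 and 5.01 in WT cells. The genotypes were apart with vector and overlapped with STING. The change was -0.81 (SE 0.23, adjusted p = 0.256) with vector and -0.20 (SE 0.23, adjusted p = 0.720) with STING, and neither passed. The averaged change of -0.51 (SE 0.16, adjusted p = 0.117) did not pass.

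TRIAP1, a small protein that protects cells from apoptosis under p53 activation, had 58.8 and 67.03 FPKM in PERK KO cells with vector, against 127 and 126 in WT cells with vector. With STING it had 48.5 and 41.3 FPKM in PERK KO cells, against 112 and 109 in WT cells. Each PERK KO library was below each WT library. TRIAP1 fell by 1.28 on the log2 scale (SE 0.17, adjusted p = 0.0293) with STING and by 1.14 (SE 0.12, adjusted p = 0.00540) averaged, while the change of -1.0003 (SE 0.17) with vector did not pass (adjusted p = 0.101).

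EDA2R, a receptor of the tumour necrosis factor family that binds ectodysplasin A2, stood at the floor of 1 in all 4 PERK KO libraries. The WT libraries had 5.16 and 4.54 FPKM with STING and 4.85 and 7.33 FPKM with vector. EDA2R was thus listed above the floor in each WT library and in no PERK KO library. By limma the change was -1.55 (SE 0.23, adjusted p = 0.0293) with STING, -1.80 (SE 0.23, adjusted p = 0.0558) with vector and -1.67 (SE 0.16, adjusted p = 0.00506) averaged. Each change depends on where the floor and the pseudocount lie. At the floor the PERK KO libraries show no spread. The SE and adjusted p therefore rest on the WT libraries and on the spread shared between genes.

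AEN, a nuclease linked to apoptosis, had 17.5 and 25.7 FPKM in PERK KO cells with vector, against 39.4 and 42.4 in WT cells with vector. With STING it had 21.97 and 22.5 FPKM in PERK KO cells, against 35.9 and 31.9 in WT cells. The genotypes did not overlap. The averaged change was -0.75 (SE 0.16, adjusted p = 0.0387), while the changes with vector (-0.91, SE 0.22, adjusted p = 0.214) and with STING (-0.59, SE 0.22, adjusted p = 0.229) did not pass.

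DDB2, a subunit of the complex that recognises ultraviolet damage in chromatin, averaged 26.1 ± 3.58 FPKM in PERK KO and 34.4 ± 4.54 in WT cells (SD, n = 4). Its 4 PERK KO libraries reached 29.8 FPKM at most, and its 4 WT libraries started at 30.0. The averaged change of -0.39 (SE 0.15, adjusted p = 0.176) did not pass. SESN1, a sestrin that restrains mTORC1 signalling, ranged from 1.23 to 4.23 FPKM in PERK KO and from 3.47 to 7.87 FPKM in WT cells. Over both plasmids the genotypes overlapped, with an averaged change of -0.62 (SE 0.26, adjusted p = 0.206). With STING alone SESN1 was apart, at 1.23 and 3.02 FPKM in PERK KO and 3.47 and 4.13 in WT cells. That change was -0.68 (SE 0.37, limma adjusted p = 0.407). With vector the genotypes overlapped (-0.57, SE 0.37, adjusted p = 0.560).

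**Figure D2:**
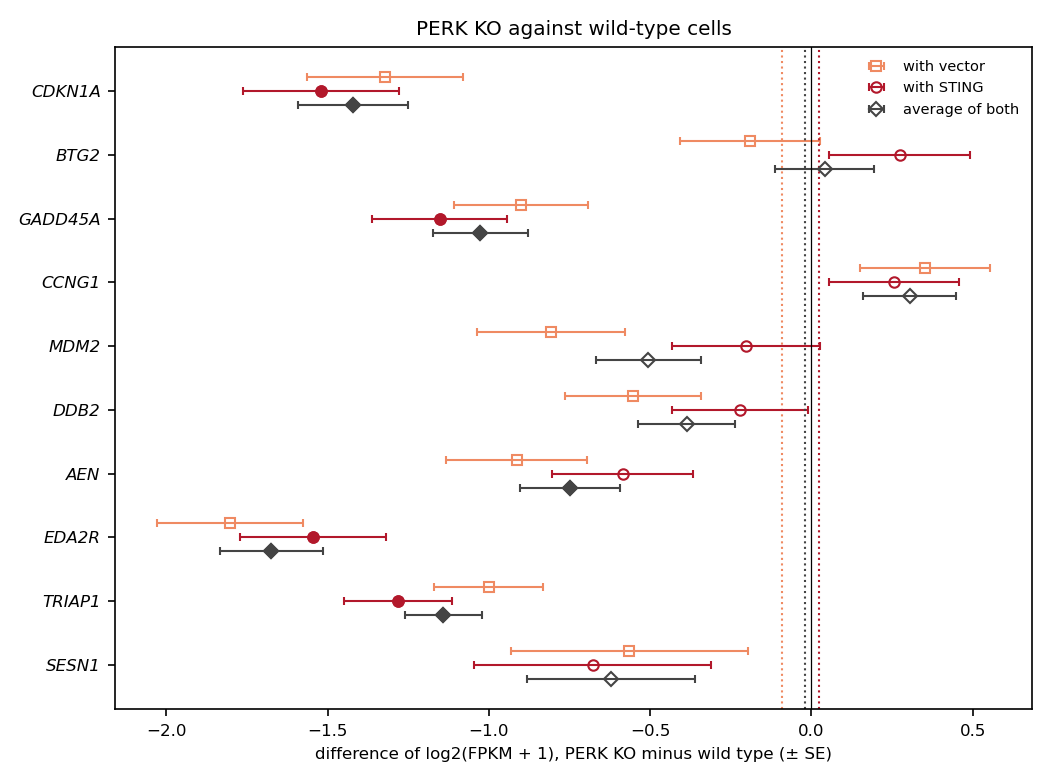
Log2 change of each member in PERK KO against WT cells with STING, with vector and averaged, with limma SE; filled symbols have an adjusted p under 0.05 and dotted lines mark the median of all genes. CDKN1A, TRIAP1, EDA2R and GADD45A are filled with STING, no member is filled with vector, and AEN joins the 4 in the average.

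With STING alone, 4 of the 10 members fell in PERK KO cells and none rose, where 1.75% of 12254 genes passed, 0.547% lower and 1.21% higher. With vector alone, 0 of the 10 passed, where 0.049% of genes did, 6 in all, 0.0163% lower and 0.0326% higher. At an unadjusted p under 0.05, 7 members were lower and none higher with vector, against 7.99% and 4.38% of all genes. Groups were apart with the PERK KO libraries lower for 7 members with vector (25.8% of all genes) and 7 with STING (20.6%). Of these, 6 were lower in both, as were 11.7% of all genes. PERK KO libraries were apart and higher for CCNG1 with vector (12.5% of all genes) and for CCNG1 and BTG2 with STING (24.8%). An exact permutation test of 2 libraries against 2 cannot go below p = 0.333, so single-gene calls rest on the spread that limma shares between genes.

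These calls rested on few libraries. With STING and 1 library left out in turn, changes ranged from -1.65 to -1.39 for CDKN1A. They were -1.395 to -1.17 for TRIAP1, -1.62 to -1.47 for EDA2R and -1.31 to -0.996 for GADD45A. Most of these calls were lost in such fits, and so were most calls over all genes. In the averaged comparison the ranges were -1.20 to -1.08 for TRIAP1, -1.80 to -1.55 for EDA2R and -1.55 to -1.29 for CDKN1A. They were -1.11 to -0.95 for GADD45A and -0.88 to -0.62 for AEN, which lost its call in most of these fits. CDKN1A and GADD45A lost theirs in some, and fewer genes passed over the whole experiment in each. Fitting only the 2 groups with STING left 0 members past the threshold (limma adjusted p of the 4 called with STING from 0.0973 to 0.118). In that fit 0 of all 11716 genes tested passed.

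The response to STING in the knockout experiment passed for 0 of the 10 members in PERK KO cells and for 0 of 10 in WT cells. TMEM173 itself was the only gene to pass in each, 0.00816% of 12254. At an unadjusted p under 0.05, 1 member was higher and 1 lower in PERK KO cells, against 1.06% and 6.64% of all genes, and 0 were higher and 1 lower in WT cells, against 0.441% and 12.4%. The median of all genes was itself -0.11 in PERK KO and -0.27 in WT cells, beside -0.026 and -0.23 for the members.

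**Figure D3:**
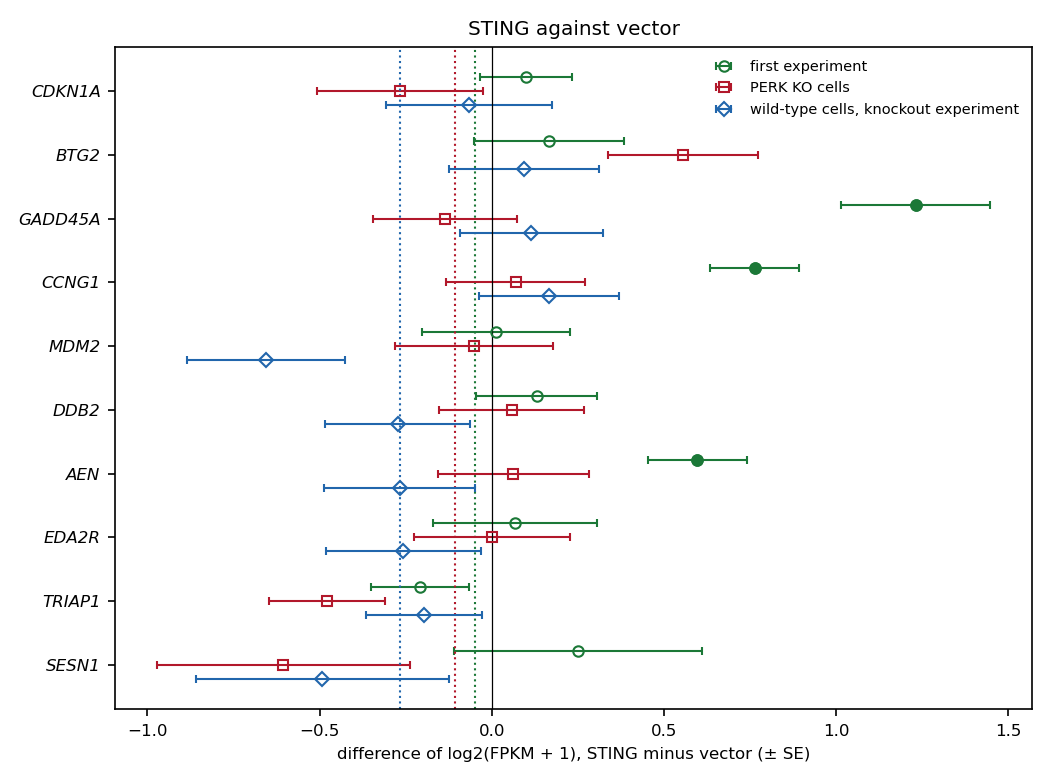
Log2 change of each member with STING against vector in PERK KO cells, in WT cells and in the first experiment, with limma SE; filled symbols have an adjusted p under 0.05 and dotted lines mark the median of all genes. GADD45A, CCNG1 and AEN are filled in the first experiment, and no member is filled in the knockout experiment.

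The unadjusted changes were those of BTG2 and TRIAP1 in PERK KO cells and of MDM2 in WT cells. BTG2 had 14.8 and 18.3 FPKM with STING in PERK KO cells, against 11.8 and 9.94 with vector, a change of 0.56 (SE 0.22, unadjusted p = 0.0349, adjusted p = 0.630). TRIAP1 in the same cells had a change of -0.48 (SE 0.17, unadjusted p = 0.0225, adjusted p = 0.588). The STING and vector libraries were apart for both genes, and these were the only members apart in PERK KO cells (5.66% of all genes were apart and higher, 21.9% apart and lower). MDM2 in WT cells had 5.65 and 5.01 FPKM with STING, against 9.45 and 8.49 with vector, a change of -0.66 (SE 0.23, unadjusted p = 0.0221, adjusted p = 0.384). WT cells had 4 members apart and lower with STING, namely MDM2, TRIAP1, DDB2 and AEN, and CCNG1 apart and higher, where 52.3% of all genes were apart and lower and 3.31% apart and higher. In WT cells with STING against vector, the negative changes of CDKN1A, TRIAP1, EDA2R, DDB2 and AEN turned positive under median-of-ratios scaling, which moved the median of all genes to 0.05. MDM2 stayed negative, while in PERK KO cells its change and that of GADD45A turned positive under that scaling.

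The difference of the STING responses between genotypes passed for 0 of the 10 members and for 0 of 12254 genes by limma, and 474 genes (3.87%) but none of the members had an unadjusted p under 0.05. MDM2 differed by 0.60 (SE 0.32, adjusted p = 0.966), and all members had adjusted p-values of at least 0.966. With 2 libraries a group, this does not show that the responses were alike.

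In the first experiment GADD45A, CCNG1 and AEN rose with STING, and no member fell. Over all 9464 genes tested 11.8% passed: 2.51% of genes rose and 9.29% fell. The members' median log2 change was 0.15, against -0.048 for all genes. With STING and vector apart, 4 members were higher, namely GADD45A, CCNG1, AEN and BTG2 (24.2% of all genes), and TRIAP1 was lower (32.8%).

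**Figure D4:**
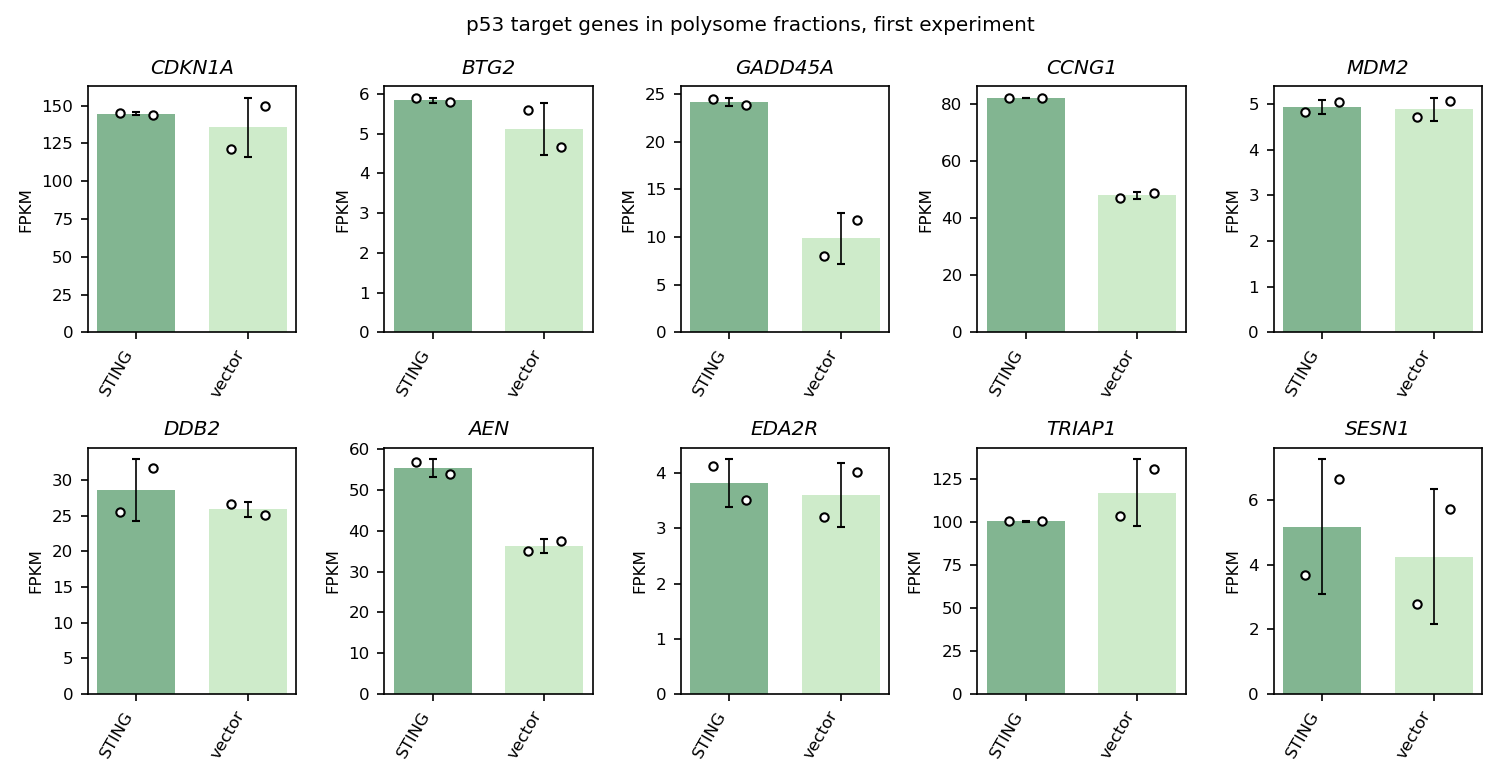
Levels of the 10 members in the first experiment in FPKM, with points for libraries and bars for group means ± SD (n = 2). GADD45A, CCNG1 and AEN are higher in both STING libraries than in both vector libraries, while CDKN1A and MDM2 overlap.

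GADD45A had 24.5 and 23.8 FPKM with STING, against 7.99 and 11.7 with vector. CCNG1 had 82.0 and 81.9 FPKM with STING, against 47.0 and 48.7 with vector. AEN had 57.0 and 53.9 FPKM with STING, against 35.2 and 37.5 with vector. For all 3, each STING library was above each vector library. The log2 changes were 1.23 for GADD45A (SE 0.22, adjusted p = 0.0112), 0.76 for CCNG1 (SE 0.13, adjusted p = 0.0102) and 0.60 for AEN (SE 0.14, adjusted p = 0.0344), on the log2(FPKM + 1) scale, which understates changes of low values. With 1 library left out in turn, changes ranged from 0.98 to 1.48 for GADD45A, 0.74 to 0.79 for CCNG1 and 0.55 to 0.64 for AEN. All 3 lost the call when either STING library was left out, as did most genes called over the whole experiment. AEN also lost the call when either vector library was left out, and with no filter on low values (limma adjusted p = 0.0742), where 580 of 15989 genes passed. All 3 also lost it without the intensity trend and robust estimation, which were dropped together (adjusted p from 0.0982 to 0.121), a setting under which 17 of the 9464 genes passed. In WT cells of the knockout experiment, GADD45A changed by 0.11 with STING (SE 0.21, limma adjusted p = 0.808). CCNG1 changed there by 0.17 (SE 0.20, limma adjusted p = 0.685). Neither passed, and the difference between the experiments was not tested.

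The other 7 members did not pass in the first experiment. CDKN1A had 145 and 144 FPKM with STING, against 122 and 149 with vector, a change of 0.10 (adjusted p = 0.678). MDM2 had 4.82 and 5.05 FPKM with STING, against 4.71 and 5.07 with vector, a change of 0.01 (adjusted p = 0.978). Both STING libraries lay within the vector range for either gene. TRIAP1 had 101 and 100.4 FPKM with STING, against 104 and 131 with vector, a change of -0.21 (adjusted p = 0.400). BTG2, SESN1, EDA2R and DDB2 had changes between 0.07 and 0.25 with adjusted p-values from 0.674 to 0.889.

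MDM4 is an inhibitor of p53 related to MDM2. With vector it had 11.6 and 12.2 FPKM in PERK KO cells, against 12.7 and 15.3 in WT cells, a change of -0.21 (SE 0.20, adjusted p = 0.687). With STING it had 12.9 and 12.2 FPKM in PERK KO cells, against 9.51 and 10.6 in WT cells, a change of 0.29 (SE 0.20, adjusted p = 0.504). The genotypes were apart with PERK KO lower with vector and higher with STING, and the difference of the STING effects, 0.50 (SE 0.28, adjusted p = 0.966), did not pass. In the first experiment MDM4 had 4.15 and 4.02 FPKM with STING, against 5.84 and 7.17 with vector, a change of -0.56 (SE 0.22, adjusted p = 0.151). Of the 19 listed regulators of p53, 0 passed in the averaged genotype comparison, where 5.4% of 12254 genes did. At that share, 0 of 19 does not set the regulators apart. Their median change was -0.022, against -0.019 for all genes. All 4 PERK KO libraries lay above all 4 WT libraries for 2 of them and below for 0, against 5.79% and 5.61% of all genes.

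Beyond the members, a list of 37 other p53 targets was set beside them, of which 33 were tested in the knockout experiment and 28 in the first. In the averaged genotype comparison 4 of 33 fell and 0 rose in PERK KO cells, where 2.42% of all genes fell and 2.98% rose. Their median change was -0.17, against -0.019 for all genes. All 4 PERK KO libraries were below all 4 WT libraries for 8 of them, as for 5.61% of all genes. RPS27L had 68.2 and 62.0 FPKM in PERK KO cells with STING, against 179 and 171 in WT cells with STING, and its averaged change was -1.11 (SE 0.11, adjusted p = 0.00506). Its groups were far apart, but RPS27L has a near-identical relative, RPS27, with which reads may be shared, so its values are uncertain. SESN2, a stress-inducible sestrin, averaged 20.4 FPKM in PERK KO and 41.2 in WT cells (-0.99, SE 0.15, adjusted p = 0.0163). FAS, a death receptor, averaged 1.30 FPKM in PERK KO and 2.63 in WT cells (-0.67, SE 0.15, adjusted p = 0.0477), close to the floor. It was 1 of 2 apoptosis targets that passed as lower, and the other is not named here. The lowest change among the 12 apoptosis targets tested was -1.08. With STING alone RPS27L was the only one of the 33 to pass (-1.42, SE 0.16, adjusted p = 0.0238), and with vector alone 0 did. Genes of the cell cycle that p53 lowers through p21 had 0 of 19 past the threshold in the averaged comparison, with a median of -0.23. Over all genes 5.4% passed, so 0 of 19 does not set these genes apart.

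**Figure D5:**
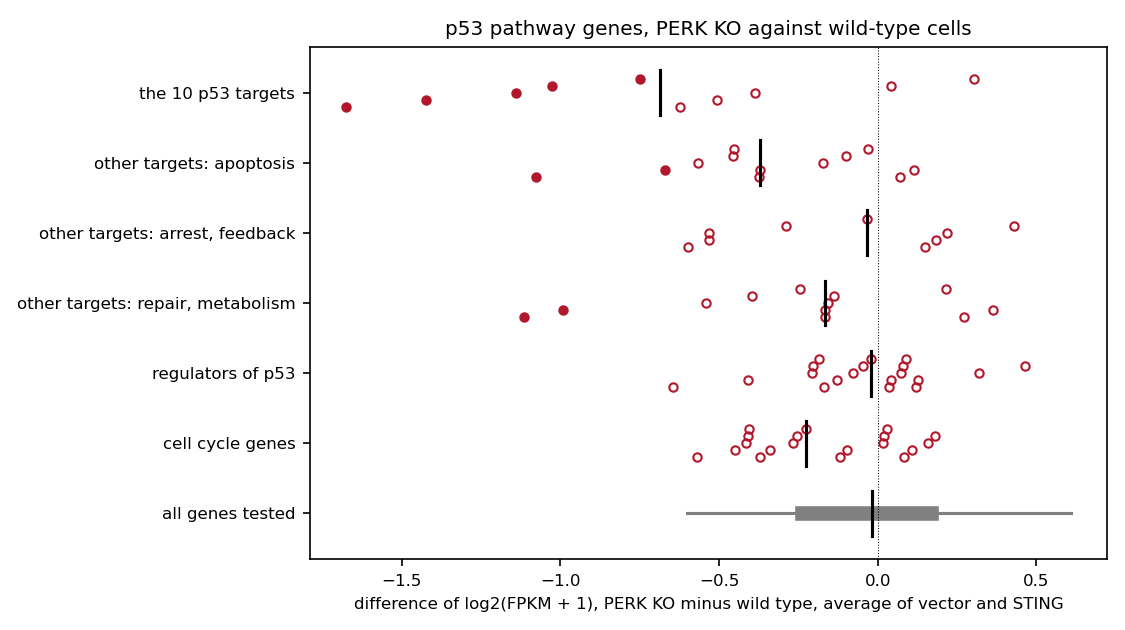
Log2 change of listed p53 pathway genes in PERK KO against WT cells, averaged over STING and vector, by list, with filled symbols for an adjusted p under 0.05; the grey bar spans the 25th to 75th and the grey line the 5th to 95th percentile of all genes. Filled symbols appear among the members and the other p53 targets, and none among the regulators and the cell cycle genes. Over all genes tested, 5.4% passed in this comparison.

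Neither genotype had another p53 target past the threshold for STING against vector. In the first experiment 3 of 28 rose with STING and 1 fell, where 2.51% of all genes rose and 9.29% fell. The median of the 28 was -0.12, against -0.048 for all genes. At an unadjusted limma p under 0.05, 3 of the 28 were higher and 8 lower, against 835 and 1788 of 9464 genes. PMAIP1, which encodes the pro-apoptotic protein NOXA, had 142 and 126 FPKM with STING, against 29.4 and 35.1 with vector (log2 change 2.03, adjusted p = 0.000654). BBC3, which encodes the pro-apoptotic protein PUMA, had 20.6 and 14.9 FPKM with STING, against 4.00 and 6.06 with vector (1.64, adjusted p = 0.00695). TRAF4, a signalling adaptor, had a change of 0.99 (adjusted p = 0.0129), and NINJ1, a membrane protein, fell by 0.84 on the log2 scale (adjusted p = 0.00629). Among regulators, the ribosomal protein RPL5, which can bind MDM2, rose by 0.88 (adjusted p = 0.00301) and was the only one of the 13 tested to pass. Genes for ribosomal proteins have many near-identical pseudogene copies, so the value of RPL5 is uncertain.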

How the data were processed

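The authors aligned reads to hg19 with TopHat2 2.1.1 and obtained the deposited FPKM of the first experiment with Cufflinks 2.2.1, per the submitters' processing notes. The knockout experiment's deposited table names no unit, and no library goes below 1. It was read here as FPKM with values under 1 set to 1, and between 13.1% and 18.1% of its 12421 symbols stand at that floor. Per the labels' protocols polyadenylated RNA was amplified by Smart-seq2. A spike-in named there is not used here. Neither table gives counts, so the depth of a library is unknown and counting error is not estimated.

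Groups were taken from the sample titles. Each table was fitted on log2(FPKM + 1) with limma 3.58.1 (R 4.3.3), keeping genes that vary and average at least 1, with 1 mean per group, an intensity trend and robust estimation. Tests were two-sided, and p-values were adjusted over all genes tested by Benjamini and Hochberg, with a threshold of 0.05. The code was tested on simulated data. Replicates correlated across genes with r from 0.948 to 0.991. The tables were not combined. Named genes beyond the members are at most 3 per direction and list past the threshold in a comparison, plus MDM4 and the genes that check the labels. Not every listed gene that passed is named. Alternatives changed the pseudocount, filter, scaling, moderation, block and libraries. 1 gene of the regulator list is not reported here. The members and lists were chosen with earlier results of these data known. Symbols of the lists that one table does not hold were not analysed here.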

Additional observations from a re-analysis of the deposited data

Results flagged for a closer look

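The log2 change of AEN with STING had opposite signs in the first experiment and in WT cells of the knockout experiment, and only the first passed. It was 0.60 in the first experiment (limma adjusted p = 0.0344) and -0.27 in WT cells (adjusted p = 0.541), where the median of all genes was also -0.27. In the first experiment both STING libraries lay above both vector libraries, as for 24.2% of all genes, and in WT cells both lay below, as for 52.3% of all genes. The difference between the experiments was not tested, since the tables were made separately. With median-of-ratios scaling and with quantile normalization the value in WT cells became 0.11.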

How the results depend on the processing

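Counts of genes past the threshold moved more than the directions did. For PERK KO against WT cells with vector, 0 of the 10 members passed, against 1 (EDA2R) with a pseudocount of 0.1, with median-of-ratios scaling and with quantile normalization. Over all 12254 genes, 6 passed, against 17, 53 and 24 in that order. For PERK KO against WT cells with STING, 4 members passed, against 0 when only these 2 groups were fitted. Over all genes, 215 of 12254 passed, against 0 of 11716. For STING against vector in the first experiment 3 members passed, against 0 without the trend and robust estimation. Over all 9464 genes, 1117 passed, against 17. Leaving out 1 library lowered the counts over all genes in each of these comparisons and in the averaged genotype comparison. It did not raise the counts of the members. The members that the averaged genotype comparison called kept a negative change in all 16 alternatives (15 for EDA2R, which a mean of at least 5 leaves out). Over these, TRIAP1 ranged from -1.20 to -1.05. Removing the filter on low values, which is among them, left the fit of the knockout experiment unchanged, since no value there is below 1.

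Counts of the other listed p53 genes were 5 in the first experiment, against 8 with a mean of at least 5 and 0 without the trend and robust estimation. Over all genes, 1117 of 9464 passed, against 1213 of 5296 and 17 of 9464 in that order. For genotype with STING there was 1, against 2 with a mean of at least 5, 3 with median-of-ratios scaling, 2 with quantile normalization and 0 with only these 2 groups. Over all genes, 215 of 12254 passed, against 356 of 6340, 449 and 468 of 12254 and 0 of 11716 in that order. For genotype averaged there were 4, against 8 with quantile normalization, where 662 and 976 of all 12254 genes passed. Leaving out libraries gave 0 to 5, 0 to 1 and 1 to 6 for these 3 comparisons.

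The replicate numbers of the titles were tried as a replicate block. Deviations of same-numbered libraries correlated with r = 0.0741 in the first experiment and from 0.0421 to 0.528 in the knockout experiment. In each knockout experiment group, library 1 had the lower median of all symbols, from 4.38 to 5.36 FPKM, against 4.54 to 6.32 for library 2. Whether the numbers mark a pairing or a batch was not tested, and the main fits leave any such effect out. With the block, 3 members passed for genotype with vector (CDKN1A, EDA2R and TRIAP1), where 105 of 12254 genes did, against 6 without it. SESN1 passed in the averaged genotype comparison (-0.62, limma adjusted p = 0.0418), where 1707 genes did, against 662. The counts of the pooled other p53 genes became 12 in the first experiment, 1 for genotype with vector, 4 with STING and 16 averaged. Over all genes, 1587 of 9464 passed in the first experiment and 851 with STING, against 1117 and 215.

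Small changes that had not passed turned their sign under scaling, which moved the values of all genes. For STING against vector in WT cells the median of all genes was -0.27. It became 0.05 with median-of-ratios scaling and 0 with quantile normalization. Why the libraries differed in level was not tested. For STING against vector in WT cells, median-of-ratios scaling gave 0.11 for AEN, 0.32 for CDKN1A, 0.11 for DDB2, 0.073 for EDA2R and 0.19 for TRIAP1, and quantile normalization gave 0.11, 0.31, 0.11, 0.072 and 0.16 in that order. In PERK KO cells GADD45A became 0.039 with median-of-ratios scaling and 0.044 with quantile normalization, and MDM2 0.11 and 0.081 in that order. With quantile normalization MDM2 became -0.0098 and TRIAP1 0.063 in the first experiment, and the difference of STING effects of EDA2R became -0.072. With a pseudocount of 5 that of SESN1 became 0.022.

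Leaving out libraries turned the sign of other changes that had not passed. In the first experiment CDKN1A ranged from -0.048 to 0.25, DDB2 from -0.020 to 0.28, EDA2R from -0.061 to 0.20, MDM2 from -0.031 to 0.055 and SESN1 from -0.17 to 0.67. With STING against vector in PERK KO cells AEN ranged from -0.20 to 0.33, CCNG1 from -0.13 to 0.27, DDB2 from -0.17 to 0.28, GADD45A from -0.29 to 0.020 and MDM2 from -0.27 to 0.17. In WT cells BTG2 ranged from -0.035 to 0.22, CDKN1A from -0.25 to 0.11 and GADD45A from -0.029 to 0.26. The difference of STING effects ranged from -0.29 to 0.099 for CCNG1, from -0.46 to 0.065 for CDKN1A and from -0.54 to 0.31 for SESN1. Genotype averaged ranged from -0.031 to 0.11 for BTG2, and genotype with STING from -0.43 to 0.019 for MDM2. A fit without 1 library assumes that the lone library left varies like the other groups.

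Depth is unknown, and values near the floor of 1 cannot show how far EDA2R or FAS fell. With 2 libraries a group, a change that missed the threshold is not shown to be absent.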
